A study of Homo sapiens with 12 samples.

Results

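The mitochondrial ribosomal protein genes were taken as the gene symbols of the platform annotation that begin with MRPL or MRPS and a digit, after 3 pseudogenes and 2 antisense RNAs were left out. This gave 73 genes of the 14884 named genes on the array, 48 with an MRPL symbol and 25 with an MRPS symbol. Where a gene had several probe sets, the brightest on average stood for it, and every one of the 73 was tested, with no filter on low values. The cells were Ishikawa, a line from a human endometrial adenocarcinoma, and their RNA was measured on 4 groups of 3 arrays. The labels call the groups control ERα(-), shMOF ERα(-), control ERα(+) and shMOF ERα(+). KAT8 encodes MOF, a histone acetyltransferase, and shMOF by its name is a short hairpin against it. ESR1 encodes ERα, an oestrogen receptor. Not given in the sources used here are the hairpin, how the ERα(-) and ERα(+) conditions were made, whether a line is a single clone, and whether replicates were separate cultures. Every p-value below thus reflects only how far these arrays scatter, and that scatter may be technical.

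Mitochondria keep their own ribosome, which translates the few messenger RNAs of the mitochondrial genome into core subunits of the respiratory chain and ATP synthase. Its ribosomal RNAs are made inside the organelle, whereas all of its proteins are encoded in the nucleus, made in the cytosol and imported. Part of these proteins descend from bacterial ribosomal proteins, and the others are found only in mitochondria. MRPL genes encode mainly proteins of the large subunit, which joins amino acids, and MRPS genes mainly proteins of the small subunit, which reads the message. Here 41 of the 73 are of the bacterial type and 32 are specific to mitochondria.

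Promoter sequence from RefSeq, build GRCh38.p14, was matched by Entrez gene identifier for 65 of the 73 genes, as 81 windows of 300 bases that run from 250 before to 50 after a transcription start. The stretches before the start of MRPL46, MRPL17, MRPL27, MRPL38 and MRPL53 are shown as examples from the genes named in the comparisons further on. Capitals mark matches on either strand to GCGCANGCG (the motif of NRF1), CCGGAAGT (ETS factors such as GABPA) or GGGCGG (SP1), and the last base of each stretch is the base just before the start. The stretch of MRPL46 lies on the minus strand at chr15:88467389-88467638, that of MRPL17 on the minus strand at chr11:6683341-6683490, and that of MRPL27 on the minus strand at chr17:50373185-50373284. The stretch of MRPL38 lies on the minus strand at chr17:75904885-75905084 and that of MRPL53 on the minus strand at chr2:74472681-74472830.
MRPL46: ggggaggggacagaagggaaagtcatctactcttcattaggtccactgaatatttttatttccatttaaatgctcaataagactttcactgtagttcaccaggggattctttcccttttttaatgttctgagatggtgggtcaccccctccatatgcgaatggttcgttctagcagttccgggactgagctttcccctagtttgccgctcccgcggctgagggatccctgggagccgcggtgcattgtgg
MRPL17: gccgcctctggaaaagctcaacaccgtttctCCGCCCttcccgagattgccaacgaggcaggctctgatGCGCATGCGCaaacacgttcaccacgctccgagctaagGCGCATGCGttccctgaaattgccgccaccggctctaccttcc
MRPL27: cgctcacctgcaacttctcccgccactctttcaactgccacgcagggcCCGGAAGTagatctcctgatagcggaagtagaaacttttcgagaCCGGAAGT
MRPL38: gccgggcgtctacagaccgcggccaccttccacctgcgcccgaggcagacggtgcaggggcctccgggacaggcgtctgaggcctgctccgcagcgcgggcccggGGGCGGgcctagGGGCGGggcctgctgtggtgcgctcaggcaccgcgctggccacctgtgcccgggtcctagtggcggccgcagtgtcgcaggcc
MRPL53: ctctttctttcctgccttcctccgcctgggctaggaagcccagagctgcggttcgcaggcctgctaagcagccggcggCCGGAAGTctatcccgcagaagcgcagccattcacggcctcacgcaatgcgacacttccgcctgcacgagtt
The stretch of MRPL46 holds no match to these motifs. That of MRPL17 holds 3 matches to the NRF1 motif, of which a palindromic site counts on both strands, and 1 to that of SP1. MRPL27 has 2 ETS matches, MRPL53 has 1, and MRPL38 has 2 SP1 matches.

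The motif AAGATGGCG, that of YY1, was found in 12 of the genes, with 13 matches, of which 9 lie after the start. Over all promoter windows, 58.1% of 628 matches lie after the start. It is shown with its surroundings for MRPL42 (plus strand, chr12:93467512-93467541), MRPL46 (minus strand, chr15:88467361-88467390), MRPL50 (minus strand, chr9:101398576-101398605), MRPL38 (minus strand, chr17:75904859-75904888) and MRPL52 (plus strand, chr14:22829779-22829808). Capitals mark the motif.
MRPL42: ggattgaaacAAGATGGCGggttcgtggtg
MRPL46: gggagaacgaAAGATGGCGgcgcccgtaag
MRPL50: gatctcatcgAAGATGGCGgcgcgatctgt
MRPL38: ggccggagggAAGATGGCGgcgccctggtg
MRPL52: acgatgacccAAGATGGCGgagccgtgatt
The motif was in 14.8% of the 81 windows, against 1.75% of all 35116 promoter windows of the same length. The latter cover 27305 genes, protein-coding or not, whereas the members are all protein-coding. The NRF1 motif was in 17.3% against 7.52%, the ETS motif in 17.3% against 4.14%, and the SP1 motif in 60.5% against 45.0%. No match to one of the 4 motifs overlapped a match to another in the 81 windows of the members. Genes on both sides of 0 in the comparisons carry the YY1 motif: MRPL42 and MRPL50 lay higher, and MRPL46 and MRPL38 lower, in shMOF ERα(+) than in control ERα(+). A match describes the letters only.

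The 12 arrays had log2 medians of 4.53 to 4.59 and correlated with each other at 0.965 to 0.994. For 3 of the 12 arrays the closest array was in its own group. The targeted gene, KAT8, did not follow the labels: under ERα(-) it was at 6.77 ± 0.10 in control and 6.75 ± 0.03 in shMOF, and under ERα(+) at 6.74 ± 0.12 in control and 6.78 ± 0.21 in shMOF (log2, mean ± SD, n = 3 arrays each). ESR1 did not either, at 4.28 ± 0.15, 4.42 ± 0.09, 4.46 ± 0.17 and 4.27 ± 0.01 in the same order. Its only probe set had a 12-array mean of 4.36, below the median level of all genes at 5.66, so a difference in ESR1 may not show. Directions are therefore given between the arrays labelled shMOF and those labelled control, and between the ERα labels. All 7 measured epithelial markers lay above the median level of all genes (EPCAM at 11.5, PAX8 at 10.7), whereas the fibroblast markers DCN at 2.06, LUM at 2.20 and THY1 at 4.94 lay below it. Of 5 immune and endothelial markers only CD68, at 7.03, lay above it.

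The mitochondrial ribosomal protein genes were well expressed as a group: 72 of 73 lay at or above the median level of all genes, 5.66 on the log2 scale. The means over 12 arrays ran from 4.92 for MRPL23, the one below, to 10.67 for MRPS15, although levels of different probe sets are not compared further. Their values varied little, with a median SD over 12 arrays of 0.16 against 0.20 for all genes. MRPS15, a small-subunit protein of the bacterial type, had the smallest SD at 0.06. The largest were those of MRPL1 at 0.32, MRPL54 at 0.29, MRPL24 at 0.28, MRPL4 at 0.26 and MRPS2 at 0.26.

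On single arrays most members tended to lie on the same side of their own mean, and arrays of one label could lie far apart. In control ERα(-), 15.1%, 74.0% and 26.0% of the members lay above their own 12-array mean on replicates 1, 2 and 3. In shMOF ERα(-) the shares were 74.0%, 30.1% and 57.5%. In control ERα(+) they were 82.2%, 61.6% and 74.0%, and in shMOF ERα(+) they were 31.5%, 31.5% and 41.1%. The control ERα(+) arrays all lay above the shMOF ERα(+) arrays, while both ERα(-) groups spanned low and high arrays. Over all genes the share ran from 43.6% to 56.0%. The mean level of the 73 members was 7.98, 7.89 and 7.96 in control ERα(+) and 7.83, 7.77 and 7.85 in shMOF ERα(+), against an SD within groups of 0.082. In such bulk RNA, fewer cells of a kind and less RNA per cell cannot be told apart.

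**Figure D1:**
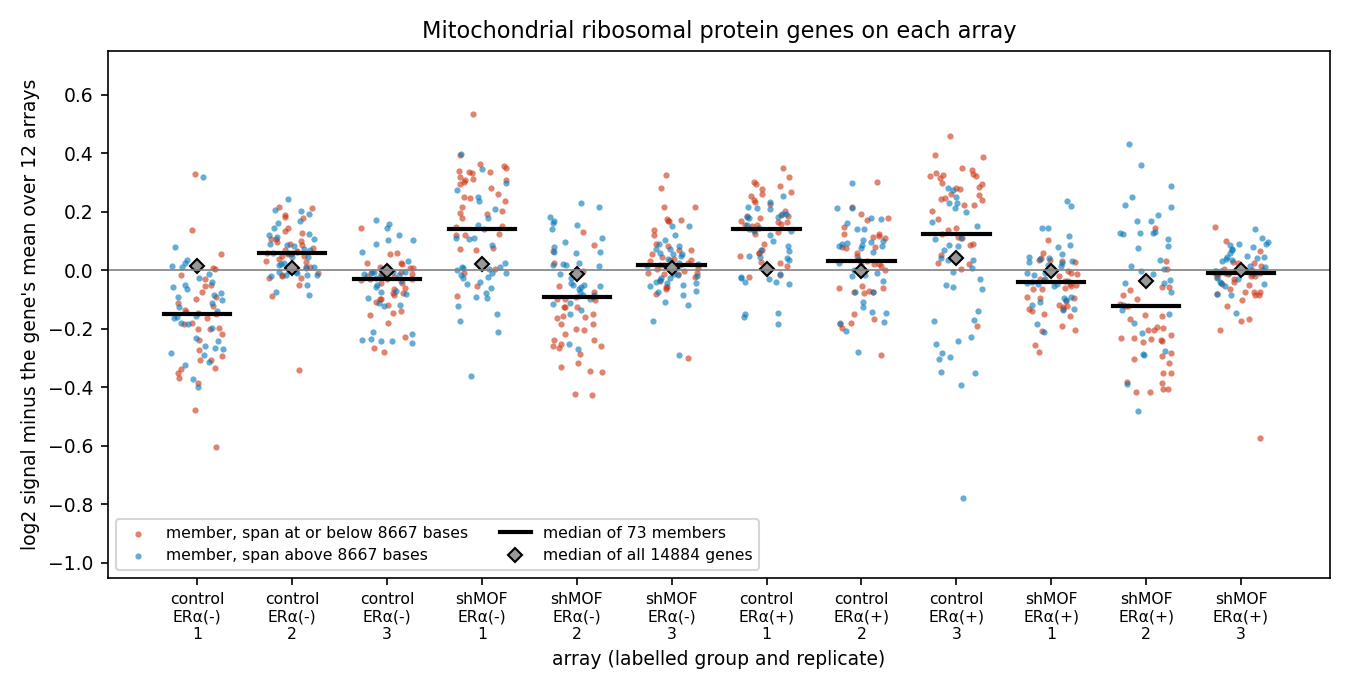
Log2 signal of each of the 73 members minus its own mean over 12 arrays (vertical), for each array of the 4 labelled groups (horizontal); dots are members, coloured by gene span, black bars the median of the members and diamonds the median of all 14884 genes. Under ERα(+), the black bar is above 0 on each control array and below 0 on each shMOF array, and in both ERα(-) groups it lies on either side.

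This pattern went with the main axis of variation of the whole data set. The first principal component over all genes held 36.8% of the variance and was above 0 on the 3 control ERα(+) arrays and on shMOF ERα(-) replicates 1 and 3. On these 5 arrays 57.5% to 82.2% of the members lay above their mean. On 6 of the other 7 arrays the share was 15.1% to 41.1%, and on control ERα(-) replicate 2 it was 74.0%. Values from fits that hold this axis as a covariate stand beside the results they touch. The axis was computed from the same values, members included. On replicates 1 to 3 it stood at 13.3, 3.60 and 32.9 in control ERα(+) and at -4.40, -29.8 and -9.85 in shMOF ERα(+). It also separates the control ERα(+) from the control ERα(-) arrays. Such a fit can thus take away part of these differences by construction, and cannot tell the axis from the labels.

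In the arrays labelled ERα(+), most mitochondrial ribosomal protein genes lay lower in shMOF than in control. Of the 73, 54 were below 0 and 19 above, with a median log2 difference of -0.18 against -0.039 over all genes, of which 43.8% were above 0. The 3 shMOF arrays all lay below the 3 control arrays for 28 members (38.4%, against 14.1% of all genes) and all above for 3 (4.11%, against 12.2%). None of the 73 was called by limma at a Benjamini-Hochberg adjusted p below 0.05, as was true of 0% of all genes, and the smallest adjusted p of a member was 0.223. At an unadjusted p below 0.05, 9 members were lower (12.3%, against 8.51%) and 3 higher (4.11%, against 10.2%). The 9 lower became 4 without shMOF ERα(+) replicate 2, 5 without control ERα(+) replicate 1, and 14 without shMOF ERα(-) replicate 1. Leaving out control ERα(+) replicate 2 gave 21. The 3 higher became 1 without control ERα(+) replicate 3 or without shMOF ERα(+) replicate 1 or 2. Here and below, shares of all genes at an unadjusted p are those of the main fit. No such share is given for the alternative fits, so their counts cannot be set against all genes. The median lay between -0.22 and -0.14 when any 1 array was left out, and was -0.028 once the first principal component entered as a covariate, a fit chosen after the data were seen, in which 1 member was lower and 0 higher at an unadjusted p below 0.05. With array quality weights limma called 7 of the 73 members, a smaller share than the 10.9% of all genes. They were MRPL42, higher, and MRPL38, MRPL44, MRPL46, MRPL54, MRPL55 and MRPS2, lower.

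MRPL46, a mitochondrion-specific protein of the central protuberance of the large subunit, read 7.36, 7.31 and 7.12 in control ERα(+) and 6.82, 6.89 and 7.01 in shMOF ERα(+). The groups did not overlap, and the log2 difference was -0.36 ± 0.12 (SE; adjusted p 0.223). MRPL38, another protein of the central protuberance, read 6.88, 6.82 and 6.92 in control and 6.51, 6.29 and 6.54 in shMOF. Its difference was -0.43 ± 0.15 (SE; adjusted p 0.223), again with no overlap.

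MRPS2, a small-subunit protein of the bacterial type, had the lowest difference of all members. It read 6.76, 6.63 and 6.83 in control ERα(+) and 6.35, 6.09 and 6.32 in shMOF ERα(+), a difference of -0.49 ± 0.16 (SE; 95% interval -0.83 to -0.14; adjusted p 0.223). A second probe set of MRPS2 gave -0.28. MRPL53, a mitochondrion-specific large-subunit protein, read 8.99, 8.95 and 9.14 in control and 8.81, 8.42 and 8.75 in shMOF, a difference of -0.36 ± 0.13 (SE; adjusted p 0.223). MRPL54, also specific to mitochondria, read 6.08, 5.62 and 6.05 in control and 5.60, 5.57 and 5.23 in shMOF. Its difference was -0.45 ± 0.16 (SE; adjusted p 0.223), and control replicate 2 lay just above the highest shMOF array.

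MRPL42, MRPL50 and MRPS25, all specific to mitochondria, were the 3 members whose shMOF ERα(+) arrays all lay above control ERα(+). MRPL42 read 8.81, 8.88 and 8.57 in control and 9.20, 9.32 and 9.10 in shMOF, a difference of 0.45 ± 0.14 (SE; 95% interval 0.16 to 0.74; adjusted p 0.223). MRPL50 read 7.63, 7.75 and 7.44 in control and 7.92, 8.07 and 7.78 in shMOF, a difference of 0.32 ± 0.14 (SE; adjusted p 0.250). MRPS25 read 7.36, 7.32 and 7.10 in control and 7.62, 7.59 and 7.49 in shMOF, a difference of 0.30 ± 0.13 (SE; adjusted p 0.242). For each of the 3, control replicate 3 was the lowest of the 6 arrays.

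MRPL1, which forms the mobile stalk beside the site where transfer RNAs leave, had a positive difference of 0.38 ± 0.23 (SE; adjusted p 0.365) that rested on 1 array. The difference was 0.079 without control replicate 3. It read 6.01, 6.35 and 5.27 in control ERα(+) and 6.14, 6.48 and 6.16 in shMOF ERα(+), so the groups overlapped. With the first principal component entered as a covariate its difference was -0.11.

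**Figure D2:**
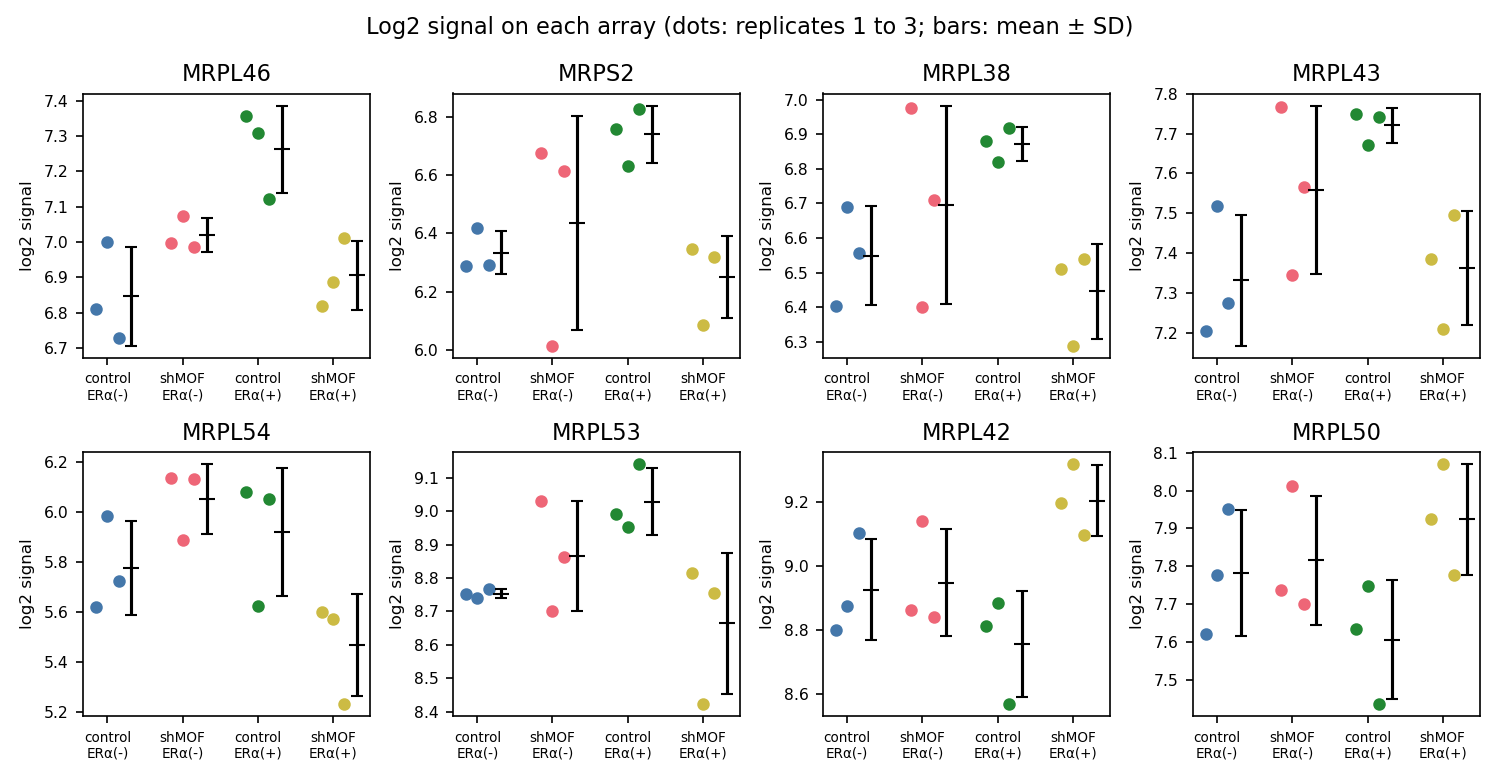
Log2 signal of 8 members on each of the 12 arrays by labelled group, with dots for replicates 1 to 3 and bars for the mean ± SD; the vertical axes differ between genes and do not start at 0. MRPL46, MRPS2, MRPL38 and MRPL43 have their highest mean in control ERα(+), and MRPL42 and MRPL50 their lowest there.

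The direction was shared by MRPL and MRPS symbols and by the bacterial-type and mitochondrion-specific classes. Of 48 MRPL symbols, 37 lay below 0 with a median of -0.19 and 22 without overlap, and of 25 MRPS symbols, 17 lay below 0 with a median of -0.11 and 6 without overlap, where 14.1% of all genes were lower without overlap. The bacterial-type members had a median of -0.18, with 30 of 41 below 0, and the mitochondrion-specific ones a median of -0.16, with 24 of 32 below 0. The difference between these classes was not tested.

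In the arrays labelled ERα(-) the same comparison gave small differences. There 53 members lay above 0 and 20 below, with a median log2 difference of 0.068 against -0.0026 over all genes, of which 49.4% were above 0. No member was called by limma (0% of all genes were), none had an unadjusted p below 0.05 in either direction (2.10% of all genes higher and 2.68% lower did), and the smallest adjusted p was 0.953. The groups did not overlap for 3 members, MRPS9, MRPS14 and MRPS27, all higher in shMOF, which is 4.11% of the members and also 4.11% of all genes. No member lay lower without overlap, against 4.66% of all genes. The median was 0.017 without control replicate 1, 0.025 without shMOF replicate 1, 0.12 without control replicate 2 and 0.13 without shMOF replicate 2. At an unadjusted p below 0.05, 8 members were higher without shMOF replicate 2, 4 were higher without control replicate 2, and 1 was lower without shMOF replicate 1. With the first principal component in the fit the median was 0.038. With array quality weights 0 members were called by limma, against 4.33% of all genes, with 9 higher and 2 lower at an unadjusted p below 0.05. For the unadjusted counts of these alternative fits, no share of all genes is given.

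The widest positive differences went with overlapping groups. MRPL52 read 5.29, 6.08 and 5.63 in control ERα(-) and 6.26, 5.77 and 5.94 in shMOF ERα(-), a difference of 0.32 ± 0.18 (SE; adjusted p 0.953). MRPS23, a small-subunit protein specific to mitochondria, read 8.47, 8.78 and 8.55 in control and 9.19, 8.52 and 8.95 in shMOF, a difference of 0.29 ± 0.16 (SE; adjusted p 0.953). In MRPS23, shMOF replicate 2 lay within the control range and the other 2 shMOF arrays above it. MRPL54 differed by 0.28 ± 0.16, MRPL27 by 0.25 ± 0.15 and MRPL43 by 0.23 ± 0.14 (SE). On the other side, MRPL28 read 7.10, 7.09 and 7.03 in control and 7.25, 6.71 and 6.67 in shMOF, a difference of -0.20 ± 0.14 (SE; adjusted p 0.953). By smallest unadjusted p, the next on that side were MRPL39 at -0.14, MRPS31 at -0.10, MRPL19 at -0.087 and MRPL45 at -0.074.

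Among the control arrays, most members lay higher under the label ERα(+) than under ERα(-). Of the 73, 55 were above 0 and 18 below, with a median log2 difference of 0.14 against -0.0024 over all genes, of which 49.6% were above 0. None was called by limma (0% of all genes), with a smallest adjusted p of 0.333. Without overlap, 13 members were higher (17.8%, against 10.3%) and 0 lower (against 8.92%). At an unadjusted p below 0.05, 7 were higher (9.59%, against 6.34%) and 0 lower (against 6.38%). The 7 became 2 without control ERα(+) replicate 3 and 3 without control ERα(+) replicate 1 or control ERα(-) replicate 1 or 3. They became 14 without control ERα(-) replicate 2 and 11 without shMOF ERα(-) replicate 2, again with no share of all genes beside them. The control ERα(+) arrays are the same ones that stand in the shMOF comparison under ERα(+), so a member that is high on these 3 arrays tends to be above 0 in the one and below 0 in the other by construction. With the first principal component entered as a covariate, the median was 0.046, and at an unadjusted p below 0.05 2 members were higher and 1 lower. With array quality weights limma called 1 member, MRPL46, against 1.46% of all genes.

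MRPL46 read 6.81, 7.00 and 6.73 in control ERα(-), below each of its control ERα(+) values, and differed by 0.42 ± 0.12 (SE; adjusted p 0.333). MRPL43, a mitochondrion-specific large-subunit protein, read 7.20, 7.52 and 7.27 in control ERα(-) and 7.75, 7.67 and 7.74 in control ERα(+), a difference of 0.39 ± 0.14 (SE; adjusted p 0.333). MRPS2 read 6.29, 6.42 and 6.29 in control ERα(-) and differed by 0.41 ± 0.16 (SE; adjusted p 0.353). All 3 had no overlap between the groups. MRPL17, a bacterial-type protein of the large subunit, read 7.59, 7.74 and 7.54 in control ERα(-) and 7.99, 7.81 and 8.03 in control ERα(+), a difference of 0.32 ± 0.12 (SE; adjusted p 0.347). MRPL34, also of the bacterial type, read 9.32, 9.61 and 9.31 and then 9.73, 9.64 and 9.83, a difference of 0.32 ± 0.12 (SE). The members farthest below 0 were MRPL50 at -0.18 and MRPL42 at -0.17, each with a positive value, 0.032 and 0.036, when the first principal component was a covariate.

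Among the shMOF arrays, ERα(+) minus ERα(-) was above 0 for 20 members and below 0 for 53, with a median log2 difference of -0.057 against -0.026 over all genes, of which 45.0% were above 0. No member was called by limma (0% of all genes), with a smallest adjusted p of 0.746. Without overlap, 4 members were lower (5.48%, against 5.70%), MRPL16, MRPL23, MRPL44 and MRPL54, and 1 higher, MRPS25 (against 3.80%). At an unadjusted p below 0.05, 2 were lower (2.74%, against 2.81%) and 0 higher (against 2.52%). With the first principal component in the fit the median turned to 0.0054, with 38 members above 0. It was -0.0091 without shMOF ERα(-) replicate 1, -0.029 without shMOF ERα(+) replicate 2, -0.089 without shMOF ERα(+) replicate 3 and -0.11 without shMOF ERα(-) replicate 2. Without the last of these arrays 15 members were lower and 2 higher at an unadjusted p below 0.05, and without shMOF ERα(-) replicate 1 or shMOF ERα(+) replicate 2, 1 was lower. These counts, too, have no share of all genes beside them. MRPL54 read 6.14, 5.89 and 6.13 in shMOF ERα(-), above its 3 shMOF ERα(+) values, and its difference of -0.59 ± 0.16 (SE; 95% interval -0.93 to -0.24; adjusted p 0.746) was the lowest. MRPL23, which sits where the new protein leaves the large subunit, read 5.22, 5.03 and 5.07 and then 4.78, 4.53 and 4.91, a difference of -0.36 ± 0.15 (SE). MRPS12, a protein of the decoding site of the small subunit, differed by -0.34 ± 0.19 with overlapping groups. MRPL42 lay highest at 0.26, followed by MRPL39 at 0.21. With array quality weights limma called MRPL27, MRPL42, MRPL54 and MRPS2. These 4 members are a smaller share than the 12.9% of all genes.

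The difference of the shMOF differences, ERα(+) minus ERα(-), was tested as an interaction. Its median over the members was -0.24 against -0.031 over all genes, with 56 members below 0 and 17 above. None was called (0% of all genes), with a smallest adjusted p of 0.219 by limma. At an unadjusted p below 0.05, 14 members were lower (19.2%, against 8.69%) and 1, MRPL42, was higher (1.37%, against 9.35%). With the first principal component in the fit the median was -0.060, with 26 members above 0, and 1 member was lower and 0 higher at an unadjusted p below 0.05. The 14 lower became 4 without shMOF ERα(+) replicate 2, 5 when shMOF ERα(-) replicate 1 was left out and 7 when control ERα(-) replicate 1 was. They became 9 without shMOF ERα(-) replicate 3 or control ERα(+) replicate 3, and 23 without shMOF ERα(-) replicate 2. In 8 of the 12 fits that leave out an array, no member was higher. How many of all genes passed this threshold in those fits is not given. MRPL54 stood at -0.73 ± 0.22, MRPL43 at -0.59 ± 0.19 and MRPL46 at -0.53 ± 0.17 (SE; adjusted p 0.219 each), and MRPL42 at 0.43 ± 0.19 (SE; adjusted p 0.265). Without shMOF ERα(-) replicate 2 the median was -0.33 and 1 member, MRPS2, was called at -0.80 (adjusted p 0.0327, where 3.83% of all genes were called). With array quality weights 13 members were called, a smaller share than the 21.9% of all genes. In shMOF ERα(-), MRPS2 read 6.68, 6.01 and 6.61, with replicate 2 the low one.

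**Figure D3:**
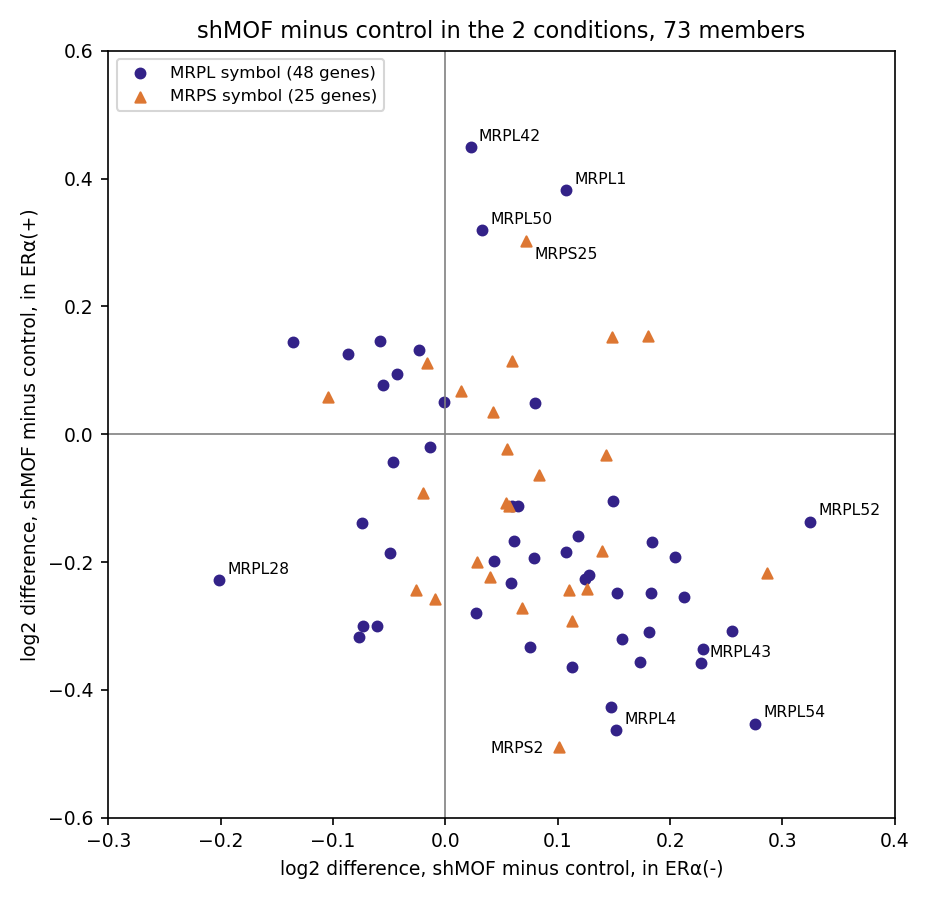
Log2 difference, shMOF minus control, of each of the 73 members in the ERα(-) arrays (horizontal) and the ERα(+) arrays (vertical), with circles for the 48 MRPL symbols, triangles for the 25 MRPS symbols and lines at 0. Of the members, 43 lie above 0 in ERα(-) and below 0 in ERα(+), 11 are below 0 in both, 10 above 0 in both, and 9 below 0 in ERα(-) and above 0 in ERα(+).

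The side of 0 on which a member lay went with the span of its gene, though little in shMOF minus control under ERα(-). Span was taken from RefSeq, and the genes were divided at the members' median span of 8667 bases, a choice made after values were seen and given with no test. In shMOF minus control under ERα(+), 35 of 37 short members lay below 0 with a median of -0.24, and 19 of 36 long members with a median of -0.021. Over all genes divided at the same span, 68.9% of 4563 short and 50.6% of 10321 long genes lay below 0. Among short members are MRPL41 at 677 bases, MRPL53 at 699, MRPS34 at 1240 and MRPL51 at 1377. Among long ones are MRPS28 at 111543 bases, MRPS27 at 100838, MRPL1 at 89956 and MRPL42 at 48701. Across genes, which are not independent replicates and share the same arrays, Spearman's rho of span and difference was 0.60 over the 73 members and 0.27 over all genes.

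**Figure D4:**
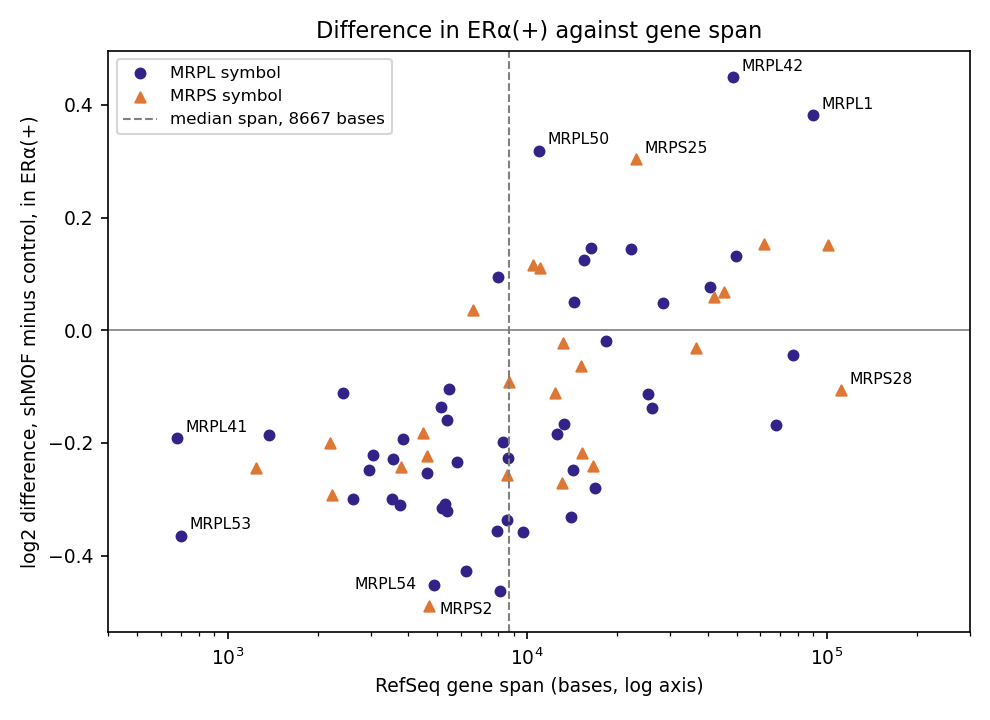
RefSeq gene span (bases, log axis) against the log2 difference, shMOF minus control under ERα(+), with circles for MRPL and triangles for MRPS symbols and a dashed line at the median span of 8667 bases. Of the 37 members at or left of the line 35 lie below 0, and of the 36 to its right 19 do.

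In shMOF minus control under ERα(-), 9 of 37 short and 11 of 36 long members lay below 0, shares of 24.3% and 30.6%, against 46.2% and 52.6% of all genes. Among control arrays, ERα(+) minus ERα(-) was below 0 for 2 of 37 short and 16 of 36 long members, against 41.6% and 54.4% of all genes. Among shMOF arrays, 36 of 37 short members were below 0 and 17 of 36 long ones, against 65.9% and 50.2% of all genes. Array by array, the short members above their own mean numbered 5, 29 and 9 of 37 in control ERα(-), 34, 4 and 25 in shMOF ERα(-), 35, 23 and 36 in control ERα(+) and 7, 3 and 9 in shMOF ERα(+). The long members numbered 6, 25 and 10 of 36, then 20, 18 and 17, then 25, 22 and 18, and last 16, 20 and 21.

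A share of the members start head to head with another gene. An opposite-strand protein-coding start within 1000 bases was found for 19 of the 65 members with a promoter (29.2%), against 12.3% of 15843 genes. MRPL46 and MRPS11, a pair of members, start 320 bases apart. Under ERα(+), MRPS11 read 8.68, 8.56 and 8.81 in control and 8.49, 8.26 and 8.48 in shMOF, a difference of -0.27 beside -0.36 for MRPL46, and among control arrays the 2 differed by 0.19 and 0.42 between the ERα labels. MRPL50 starts 233 bases from ZNF189, a zinc finger gene that differed by 0.54 under ERα(+), and MRPS2 starts 96 bases from PIERCE1, at -0.35. Of 10 pairs with both genes measured, 8 had the same sign in shMOF minus control under ERα(+) and 5 under ERα(-). Signs differed under ERα(+) for MRPL27 at -0.31 and EME1 at 0.043, and for MRPL57 at -0.11 and SKA3 at 0.19. No expected share of agreement was computed, and 54 of the 73 members and 8367 of all 14884 genes lay below 0 under ERα(+).

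Other genes of mitochondrial translation were described from lists, none of which had a called gene (0% of all genes in each comparison). In shMOF minus control under ERα(+), the 23 factors of mitoribosome assembly and ribosomal RNA modification had a median of -0.22 with 16 below 0, the lowest being DDX28, an RNA helicase of large-subunit assembly, at -0.50 ± 0.13 (SE; adjusted p 0.223 by limma), with METTL15, a methyltransferase of the small ribosomal RNA, at 0.47 ± 0.19 on the other side. The 3 subunit genes with other symbols split, with PTCD3, a small-subunit protein, at 0.54 ± 0.18 and CHCHD1 at -0.24 ± 0.12. The 12 translation factors had a median of 0.092 with 8 above 0, among them GUF1, an elongation factor, at 0.48 ± 0.16, and LRPPRC, which stabilises mitochondrial messenger RNAs, at 0.43 ± 0.16. POLRMT, the mitochondrial RNA polymerase, stood at -0.47 ± 0.20 and MTERF1 at 0.40 ± 0.18. Among 7 regulators of mitochondrial genes, 6 were below 0, including HCFC1 at -0.31 ± 0.14 and ESRRA at -0.26 ± 0.15.

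The product of mitochondrial translation enters the respiratory chain, and its nuclear-encoded partners lay on the same side. Of 25 nuclear oxidative phosphorylation genes, 19 were below 0 in shMOF minus control under ERα(+), with a median of -0.13. The cytosolic ribosomal protein genes had 46 of 52 below 0 and a median of -0.15. In control ERα(+) minus ERα(-), the medians were 0.085 and 0.12, with 17 of 25 and 43 of 52 above 0. Epithelial markers were on the same side: under ERα(+), 6 of 7 lay below 0 with a median of -0.32. Their mean level on single arrays was 8.77 to 9.08 in control ERα(+) and 8.50 to 8.80 in shMOF ERα(+), and their part in the result was not tested.

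**Figure D5:**
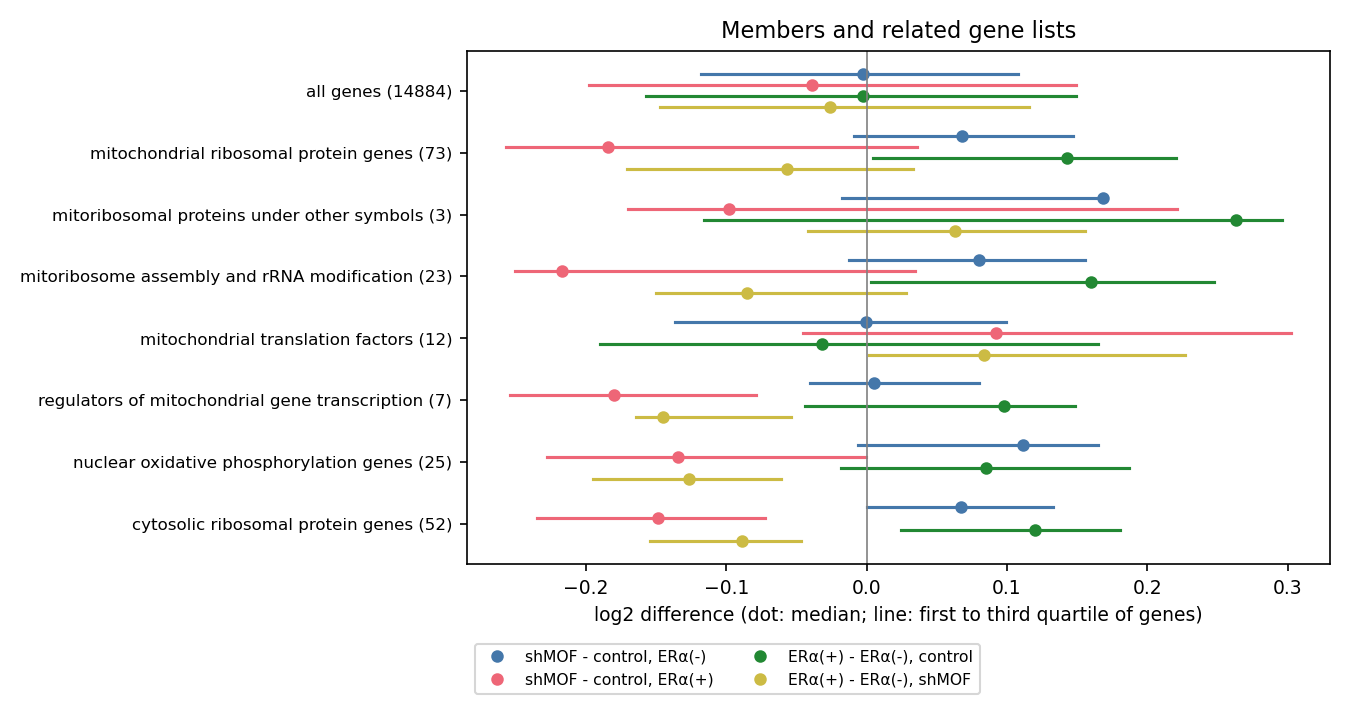
Log2 differences of the mitochondrial ribosomal protein genes, related lists and all genes in the 4 comparisons of 2 groups, with a dot for the median and a line from the first to the third quartile of genes; the number of genes stands in brackets. In shMOF minus control under ERα(+), the medians are -0.18 for the mitochondrial ribosomal protein genes, -0.22 for assembly factors, -0.15 for cytosolic ribosomal protein genes, -0.13 for oxidative phosphorylation genes, 0.092 for translation factors and -0.039 for all genes.

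The paralogs MRPS18A and MRPS18B encode related proteins that sit in different places, the first in the large subunit and the second in the small. MRPS18A had group means of 8.60, 8.73, 8.76 and 8.51 in control ERα(-), shMOF ERα(-), control ERα(+) and shMOF ERα(+), and MRPS18B 8.51, 8.50, 8.66 and 8.40. Under ERα(+) they differed by -0.24 and -0.26 between shMOF and control. MRPS18B has 7 probe sets, which carry the same values. MRPL12, MRPS6, MRPS18C and MRPS24 were not analysed here. RefSeq lists a pseudogene for 38 of the 73 members, the most being 9 for MRPS21, 8 for MRPL57 and 6 each for MRPL42 and MRPS17. MRPL35, MRPL50 and MRPS33 have 4 each. In shMOF minus control under ERα(+), MRPS21 stood at -0.064, MRPL57 at -0.11, MRPL42 at 0.45 and MRPS17 at -0.22. How far the probe sets of such genes also bind transcripts of these copies was not tested.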

How the data were processed

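RNA from 12 samples in 4 groups of 3 was measured on single-colour Affymetrix arrays. The authors deposited log2 values, for which the submitters' processing notes name RMA and Affymetrix Expression Console 1.4.1. RMA gives arrays a common distribution and can shrink differences of weakly expressed genes. The build is not given in the sources used here. Of 53617 probe sets, the platform annotation names 16098, which gave 14884 genes, each by its probe set with the highest mean. Groups came from the labels. Differences were tested two-sided with limma 3.58.1 (R 4.3.3; lmFit and eBayes, a mean for each of 4 groups, 8 residual degrees of freedom) and adjusted by Benjamini-Hochberg over all 14884 genes, called below 0.05. An exact permutation test of 3 against 3 arrays cannot go below 0.1 and was not used. The method was tested on simulated data. Members and lists were chosen with earlier results of these data known, and no list was tested as a set. Members were named by the smallest unadjusted p (up to 5 per direction in each comparison, 3 in the interaction), by extreme level or spread, and as MRPS18 paralogs, and up to 2 genes per related list and comparison. Replicate numbers do not come with a stated pairing: of 18 same-numbered pairs of samples in different groups, deviations correlated at -0.18 to 0.45 (median 0.05), with 5 over 0.1. Alternatives were array quality weights, a replicate block, filters, other probe set choices and leaving out each array.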

Additional observations from a re-analysis of the deposited data

How the results depend on the processing

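With 3 arrays in each group, the 95% interval of a member's difference reached a median of 0.28 on the log2 scale to either side, and 0.40 for the interaction. Larger differences than these were not called either. Of 765 values of named members under alternatives, 742 kept their direction and their side of the threshold, 13 passed it and 10 turned sign. Some alternatives leave the log2 difference unchanged by construction, so that no sign could turn. Among them are the replicate block, the mean-variance trend, the fits of the 2 groups alone and the filter on the median level. With array quality weights, which ran from 0.36 for shMOF ERα(-) replicate 2 to 8.86 for replicate 3, limma called 7 members in shMOF minus control under ERα(+) (MRPL38, MRPL42, MRPL44, MRPL46, MRPL54, MRPL55 and MRPS2, where 10.9% of all genes were called). It called 1 (MRPL46) between the ERα labels in control (1.46%), 4 in shMOF (MRPL27, MRPL42, MRPL54 and MRPS2; 12.9%), 13 in the interaction (21.9%) and 0 in shMOF minus control under ERα(-) (4.33%). The cause of these calls was not tested, and in each comparison the share of members called was below that of all genes. With the first principal component in the fit, an alternative chosen after seeing the data, the medians were 0.038 in shMOF minus control under ERα(-) and -0.028 under ERα(+). They were 0.046 between the ERα labels in control, 0.0054 in shMOF, where the direction turned, and -0.060 in the interaction. This component separates control ERα(+) from control ERα(-) and from shMOF ERα(+), so part of those differences can be removed by construction. In that fit these members turned sign: MRPL1 (-0.11) in shMOF minus control under ERα(+); MRPL50 (0.032), MRPL42 (0.036), MRPS31 (0.042), MRPL19 (0.030) and MRPL47 (0.087) between the ERα labels in control; and MRPL50 between them in shMOF (-0.066) and in the interaction (-0.098). Leaving out each array in turn, the interaction's median ran from -0.33 to -0.16 and its number of called members from 0 to 1, both farthest from the full data without shMOF ERα(-) replicate 2. MRPL45 under ERα(-) ran from -0.15 to 0.064, positive without control replicate 1, and MRPL47 between the ERα labels in control from -0.19 to 0.032, positive without control ERα(+) replicate 3. With a replicate block, 0 members were called in any comparison. The medians of 0.068, -0.18, 0.14, -0.057 and -0.24 were those without it by construction, since each group holds each replicate number once. Whether the numbers pair the samples is not stated. Of 18 same-numbered pairs, 5 correlated above 0.1, with a median of 0.049 against -0.037 for pairs of different numbers. These values do not settle it. Quantile normalization, arrays shifted to a common median, the mean of all probe sets, a mean-variance trend, the first letter of the sample codes in the labels as a random block (of these letters, what they stand for is not given in the sources used here), genes at or above the median level and fits of the 2 groups alone called 0 members. Under quantile normalization or shifting, the median difference of all genes moved most between the ERα labels in shMOF. It went there from -0.026 to 0.00034 with arrays shifted to a common median.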
